A study of Caenorhabditis elegans with 4 samples.

Results

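The mlt genes of Caenorhabditis elegans are a class named after worms that cannot complete the molt, the shedding of the old cuticle. The members were taken by name from the gene class, apart from mlt-3, which is described with its partner kinase. These were mlt-2, mlt-4, mlt-7, mlt-8, mlt-9, mlt-10 and mlt-11. They made up 7 of the 20461 genes and 11 of the 43541 probes left once spots with an outlier flag were removed. The rule uses gene names alone, and it was set with earlier results of these data known.

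At the end of each larval stage the epidermis detaches from the cuticle, secretes a new one beneath it, and the worm escapes from the old one at ecdysis. The process needs epidermal endocytosis, oxidative cross-linking of cuticle proteins, proteases and their inhibitors, a temporary apical matrix, and transcription factors that cycle with the larval stages. Adults do not molt, so the values below are those of molting genes in worms past the last molt.

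The worms were N2 wild type animals grown at a single temperature on standard plates, and all were at day 7 to 8 of adulthood. They were divided by maximum velocity (MV), the fastest movement of a worm on a plate without bacteria, with 0.22 mm/sec between low MV worms and high MV worms. By label both groups had the same strain, age and growth conditions and differed in MV. Total RNA of the whole body was labelled with Cy3 and hybridized to 4 single-colour Agilent arrays, 2 of low MV and 2 of high MV. The labels do not say whether replicates came from separate cultures, so the p-values measure the spread between these samples, which may be technical.

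Per array, 84.6% to 87.7% of spots passed the scanner software's test against background, and 0 spots were saturated. Each slide carried the 2 arrays of a single MV group, and the slides differed in the scan date entry of the file headers. Slide, scan and MV group therefore cannot be told apart in any result below. In RNA of whole worms, fewer cells of a type and less RNA per cell cannot be told apart either. With 2 arrays against 2, an exact permutation test of a single value cannot give a two-sided p under 0.333, and the tests below are from limma, which shares the estimate of spread over all genes.

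Of the 7 mlt genes, 3 were up-regulated in low MV worms (mlt-8, mlt-10 and mlt-11), 0 were down-regulated and 4 did not pass the test. A gene was called when its limma p, adjusted by the Benjamini-Hochberg method over 12881 genes, was under 0.05 and its log2 fold change, low MV minus high MV, was over 0.58 in size, which is 1.5-fold. Each gene was read from its brightest present probe, a present probe being one above the dim population of spots on both arrays of at least 1 group. By the same rule 21.8% of all genes tested were called up and 17.0% were called down, so a call in either direction was common on these arrays. The median log2 fold change of the 7 genes was 0.23, against 0.01 for all genes. At an unadjusted limma p under 0.05, 0 mlt genes were lower in low MV worms. The study combined the methods' t-test with a log2 median ratio test, both read against permuted samples, and here the methods' t-test was run on its own as an alternative, not as the study's test. By it mlt-8, mlt-10 and mlt-11 passed at an unadjusted p under 0.05, and 0 of the 7 passed after Benjamini-Hochberg adjustment.

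**Figure D1:**
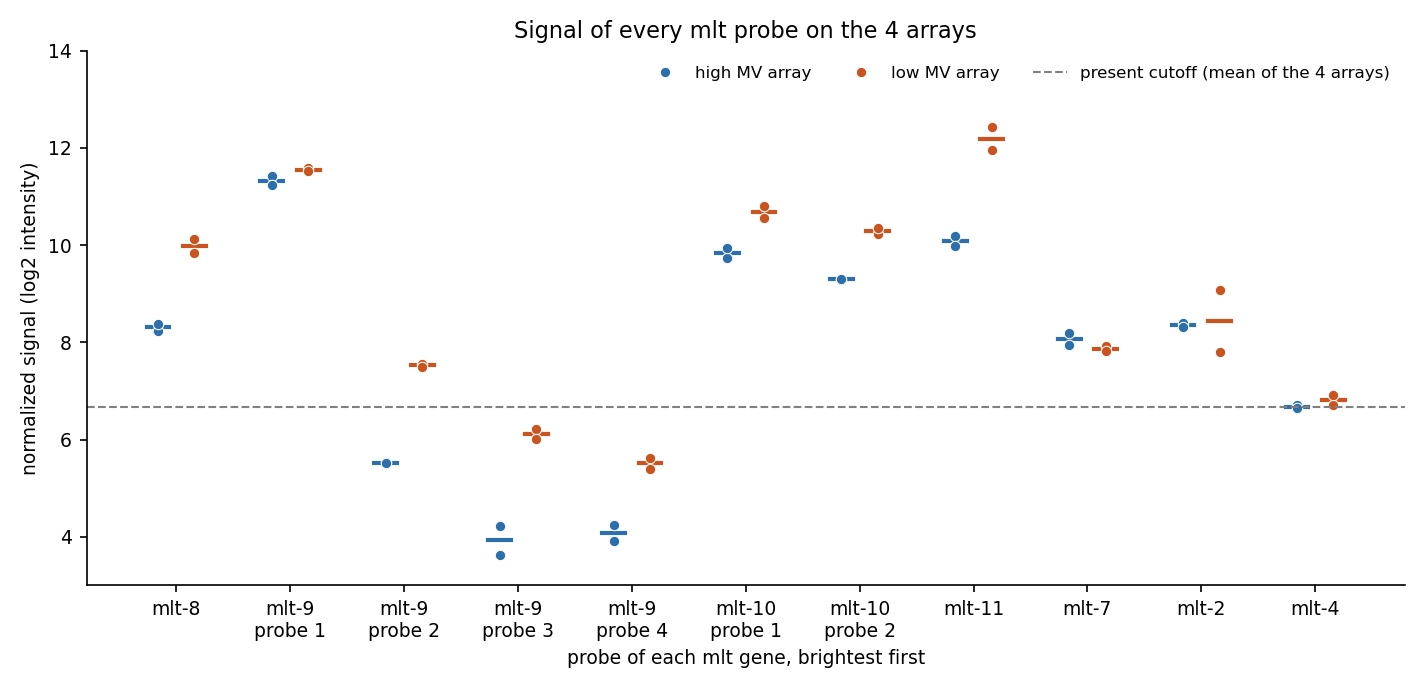
Normalized log2 signal of each probe of the 7 mlt genes on the 4 arrays, with the 2 high MV and the 2 low MV arrays as points. The low MV points of mlt-8, mlt-10, mlt-11 and the second mlt-9 probe lie above both high MV points, and the low MV points of mlt-2 lie on either side of them.

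The largest difference among the 7 was that of mlt-11, which encodes a secreted protein with Kunitz-type protease inhibitor domains. Its probe read 10.18 and 9.99 on the high MV arrays and 12.43 and 11.96 on the low MV arrays, all on the log2 scale. Both low MV arrays were above both high MV arrays by a wide margin. The means were 10.08 ± 0.14 (SD, n = 2) and 12.19 ± 0.34 (SD, n = 2), a 4.32-fold difference. mlt-11 was up-regulated with a log2 fold change of 2.11 (SE 0.18, 95% interval 1.65 to 2.58, limma adjusted p = 0.00112). The rise was the 77th largest of the 12881 genes tested. Before normalization the background-subtracted intensities were 1082 and 1119 in high MV worms and 5107 and 3440 in low MV worms.

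mlt-8, a gene required for molting, gave 8.23 and 8.39 in high MV worms and 10.12 and 9.83 in low MV worms. The groups did not overlap, and the lower low MV array was still well above the higher high MV array. The means were 8.31 ± 0.11 (SD, n = 2) and 9.98 ± 0.20 (SD, n = 2), a 3.18-fold difference. mlt-8 was up-regulated with a log2 fold change of 1.67 (SE 0.13, 95% interval 1.32 to 2.01, limma adjusted p = 0.00100). Of all genes tested, 97.8% had a smaller log2 fold change.

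mlt-10 encodes a proline-rich repeat protein of a nematode family and had 2 probes. The brighter one read 9.74 and 9.94 in high MV worms and 10.56 and 10.80 in low MV worms. The other read 9.29 and 9.31 in high MV worms and 10.22 and 10.36 in low MV worms. Both probes were higher on both low MV arrays. The gene was up-regulated with a log2 fold change of 0.84 (SE 0.13, 95% interval 0.51 to 1.17, limma adjusted p = 0.00445), the smallest of the 3 changes. The second probe gave 1.00 (SE 0.10, limma adjusted p = 0.00139 over 24749 present probes), and the ratio of the probes within an array moved by 0.16 on the log2 scale between the groups.

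mlt-9, another gene required for molting, had 4 probes that did not give the same change. The brightest read 11.42 and 11.23 in high MV worms and 11.59 and 11.52 in low MV worms. Its log2 fold change of 0.23 (SE 0.11, 95% interval -0.05 to 0.51) did not pass the test (limma adjusted p = 0.124). A second probe, whose name gives the same transcript F09B12.1b.1, read 5.54 and 5.51 in high MV worms and 7.56 and 7.50 in low MV worms. This probe was called up-regulated 4.0-fold (log2 fold change 2.00, SE 0.10, limma adjusted p = 0.000543). It counted as present only through the low MV arrays, so a higher value there was needed for it to be tested, though it was well above background on all 4 arrays. With the mean of its present probes in place of the brightest, mlt-9 was called up-regulated at 1.11, and with normexp background correction the second probe gave 0.41 and was not called.

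The remaining pair of mlt-9 probes was not present and was left out of the counts. One, named by a RefSeq accession, read 3.63 and 4.22 in high MV worms and 6.22 and 6.01 in low MV worms. The other read 3.92 and 4.25 in high MV worms and 5.62 and 5.40 in low MV worms. All 4 probes of the gene were thus higher on both low MV arrays, by 0.23 to 2.19 on the log2 scale. The log2 ratio of the second probe to the brightest within an array was -5.88 and -5.72 in high MV worms and -4.03 and -4.02 in low MV worms. The ratio differed by 1.77 between the groups (exact permutation p = 0.333, two-sided, the smallest possible here), and since the positions of the probes on the transcript were not used here, the source of the unequal change was not tested.

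Counted by probe, 5 of the 9 present mlt probes were up-regulated, from 4 genes, and 4 were not called. The share of all present probes called up was 20.3%, and the share called down was 17.9%. Both low MV arrays were above both high MV arrays for 7 of the 9, and for 40.4% of all present probes. Of the 9, the second mlt-9 probe and the mlt-4 probe were present through the low MV arrays alone, which favours higher values there. Among the other 7 probes 4 were up-regulated, from 3 genes, and 5 had both low MV arrays above both high MV arrays. Probes of 1 gene share its transcript and are not replicates, and 5 of the 7 genes had 1 probe.

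**Figure D2:**
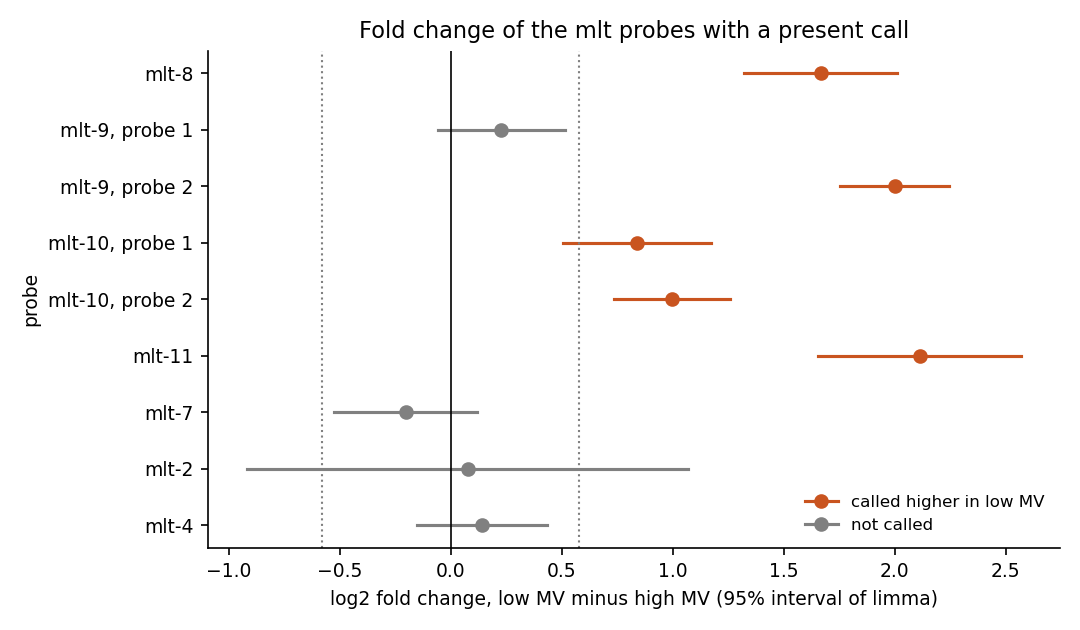
Log2 fold change, low MV minus high MV, of the 9 present mlt probes with the 95% interval of limma, with dotted lines at the 0.58 threshold in both directions. mlt-11, mlt-8, both mlt-10 probes and the second mlt-9 probe lie above the threshold, while mlt-2, mlt-4, mlt-7 and the brightest mlt-9 probe lie between -0.20 and 0.23.

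mlt-7, a heme peroxidase that works with the dual oxidase BLI-3 in cross-linking the cuticle, read 7.94 and 8.20 in high MV worms and 7.92 and 7.82 in low MV worms. It was the one member whose low MV arrays were both below both high MV arrays, and the nearest of them were almost level. Its log2 fold change of -0.20 (SE 0.12, 95% interval -0.52 to 0.12) did not pass the test (limma adjusted p = 0.213).

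mlt-2 and mlt-4 encode ankyrin-repeat proteins that act with the kinase NEKL-2 in endocytosis by the epidermis. The mlt-2 probe read 8.40 and 8.31 in high MV worms and 9.07 and 7.80 in low MV worms, so the low MV arrays held both the highest and the lowest value. Its low MV SD of 0.89 was exceeded by 0.509% of present probes. The log2 fold change of 0.08 (SE 0.40, 95% interval -0.96 to 1.11) did not pass the test (limma adjusted p = 0.881), and it rested on which low MV array was read: it was -0.56 (limma adjusted p = 0.0350) without low MV replicate 1 and 0.71 without low MV replicate 2, where it was called up-regulated.

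The mlt-4 probe read 6.70 and 6.65 in high MV worms and 6.71 and 6.93 in low MV worms. These values lay near the present cutoff, with 3 of the 4 arrays above it, though the probe was well above background on all 4. The low MV arrays were above the high MV arrays by a gap of 0.0072 only. The log2 fold change was 0.14 (SE 0.11, 95% interval -0.15 to 0.43) and did not pass the test (limma adjusted p = 0.321).

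The kinases, receptor and adaptors with which MLT-2 and MLT-4 work were tested for 6 of 6 genes, and 0 were called in either direction, with a median of 0.13 on the log2 scale. At an unadjusted limma p under 0.05 alone, 1 of the 6 passed, lrp-1, and the methods' t-test called 0. nekl-2 gave 0.41 (SE 0.17, limma adjusted p = 0.0845). nekl-3 gave 0.06 and mlt-3, the ankyrin-repeat partner of NEKL-3, gave -0.16, neither past the test. The adaptors dab-1 and fcho-1, named after their values were seen, gave -0.05 and 0.19 and did not pass it, and the 8 present dab-1 probes spread from -0.99 to 0.05. lrp-1, the megalin-related receptor taken up by the epidermis, read 8.73 and 8.94 in high MV worms and 9.39 and 9.40 in low MV worms. Its log2 fold change of 0.56 (SE 0.11, limma adjusted p = 0.00887) was just under the 1.5-fold threshold. lrp-1 was called up-regulated with 75th percentile scaling, and both lrp-1 and nekl-2 were without high MV replicate 2.

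The heme peroxidases and dual oxidases, the enzyme class of MLT-7, were mixed. The list also held tsp-15 and doxa-1, which are not enzymes of this class, and doxa-1 had no present probe. Of 9 listed genes 7 were tested, and 1 was up-regulated, 2 were down-regulated and 4 were not called, with a median of -0.34. That median was the value of tsp-15, named after its value was seen, which was not called. pxn-2, a peroxidasin, was up-regulated by 0.61 on the log2 scale (limma adjusted p = 0.0118), and its relative pxn-1 was down-regulated with -0.69 (limma adjusted p = 0.00271). skpo-3 was down-regulated with -0.90 (limma adjusted p = 0.00377). Of the 16 alternatives run, the call of pxn-2 was kept under 8, that of pxn-1 under 12 and that of skpo-3 under 13. pxn-2 lost its call with spike-in scaling, normexp and the deposited table, and without high MV replicate 1 or low MV replicate 1, and pxn-1 with 75th percentile scaling, spike-in scaling and normexp. bli-3, the dual oxidase of the cuticle, read 8.06 and 8.17 in high MV worms and 8.04 and 8.33 in low MV worms, with overlapping groups and a log2 fold change of 0.07 (limma adjusted p = 0.670). Another dual oxidase gene, duox-2, and skpo-1, both named after their values were seen, missed the fold threshold. duox-2 gave 0.56 (limma adjusted p = 0.00575) and skpo-1 gave -0.50 (limma adjusted p = 0.0277). With 75th percentile scaling and with the deposited table, duox-2 was called up-regulated and skpo-1 down-regulated. skpo-1 was also called down-regulated with spike-in scaling and normexp.

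Of 10 listed proteases and inhibitors, the functional class of MLT-11, 7 were tested, and 2 were up-regulated, 1 was down-regulated and 4 were not called, with a median of 0.19. nas-37, an astacin protease used at ecdysis, read 8.19 and 8.07 in high MV worms and 9.0 and 8.87 in low MV worms and was up-regulated by 0.81 on the log2 scale (SE 0.10, limma adjusted p = 0.00265). cpl-1, which encodes cathepsin L, read 14.27 and 14.13 in high MV worms and 15.44 and 14.77 in low MV worms, and was up-regulated by 0.90 (SE 0.23, limma adjusted p = 0.0215). The cpl-1 call was kept under 7 of the 16 alternatives, and it was lost with 75th percentile scaling, with spike-in scaling, without a filter on dim probes, and without any 1 of high MV replicate 1, high MV replicate 2 and low MV replicate 1. dpy-31, a procollagen proteinase, was down-regulated with -0.83 (SE 0.12, limma adjusted p = 0.00363). The call of nas-37 was kept under 12 alternatives, not with spike-in scaling or normexp, and that of dpy-31 under 14. bli-5, a Kunitz-type inhibitor like mlt-11, had no present probe. Its values were 6.22 and 6.17 in high MV worms and 4.97 and 5.25 in low MV worms, lower in low MV worms where mlt-11 was higher, and without a filter on dim probes its log2 fold change was -1.08 (limma adjusted p = 0.0158). In the same fit without a filter, 3 other partners with no present probe, named after their values were seen, were called up, the astacin protease nas-38 at 0.83 (limma adjusted p = 0.0159) and the transcription factors blmp-1 at 0.85 (limma adjusted p = 0.0165) and peb-1 at 0.99 (limma adjusted p = 0.0159).

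Of 11 listed transcription factors and timers of molting, 7 were tested, and 3 were up-regulated, 0 were down-regulated and 4 were not called, with a median of 0.53. nhr-25, a nuclear receptor needed for molting, read 9.87 and 9.74 in high MV worms and 11.09 and 11.16 in low MV worms, and was up-regulated by 1.32 on the log2 scale (SE 0.10, limma adjusted p = 0.000905). lin-42, the Period-related timer of larval stages, was up-regulated by 0.87 (SE 0.09, limma adjusted p = 0.00165), and elt-1, an epidermal GATA factor, by 0.65 (SE 0.10, limma adjusted p = 0.00402). nhr-25 kept its call under all 16 alternatives and lin-42 under 14, not with spike-in scaling. elt-1 kept its call under 11, not with the deposited table, normexp or spike-in scaling. nhr-23, a nuclear receptor that drives genes of the molt, read 10.16 and 9.61 in high MV worms and 9.61 and 9.54 in low MV worms. Its log2 fold change of -0.31 did not pass the test (limma adjusted p = 0.214), and all 6 of its present probes lay between -0.72 and -0.27. Without high MV replicate 2 it was called down-regulated.

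The genes of the apical matrix and of secretion moved furthest. Of 12 listed genes 10 were tested, and 9 were up-regulated, 0 were down-regulated and 1, the Patched-related ptc-3, named after its value was seen, missed the fold threshold at 0.55. The median log2 fold change was 1.54. acn-1, which encodes a protein related to angiotensin-converting enzyme without its catalytic residues, read 7.64 and 8.00 in high MV worms and 9.95 and 9.77 in low MV worms and was up-regulated by 2.05 (SE 0.15, limma adjusted p = 0.000904).

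The zona pellucida domain proteins noah-1 and noah-2 were up-regulated by 1.74 and 1.71 and the related let-653 by 1.28. noah-1 read 10.95 and 10.96 in high MV worms and 12.74 and 12.66 in low MV worms. The lipocalin gene lpr-3 was up-regulated by 1.69, and sym-1 and pan-1, which encode leucine-rich repeat proteins, by 1.56 and 0.90. che-14, a Dispatched-related gene of apical secretion, was up-regulated by 0.98. apl-1, the amyloid precursor-like gene, was up-regulated by 1.53, and over its 8 present probes the change was 0.46 to 1.53. The limma adjusted p of these 8 genes lay between 0.000645 and 0.00234. noah-1, noah-2, lpr-3 and sym-1 kept their calls under all 16 alternatives, and the other 5 up-regulated genes of the list kept theirs under 13 to 15. ptc-3 was called up-regulated with 75th percentile scaling, with the deposited table, and without high MV replicate 1 or low MV replicate 2.

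Over all 48 listed partners 37 were tested, of which 15 were up-regulated, 3 were down-regulated and 19 were not called, with a median of 0.53. By the same rule 21.8% of all genes tested were called up and 17.0% were called down. These shares are also the background for the counts by role above. The list was written with earlier results of these data known, and its counts describe these genes alone. nas-6 and fbn-1 were not analysed here.

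**Figure D3:**
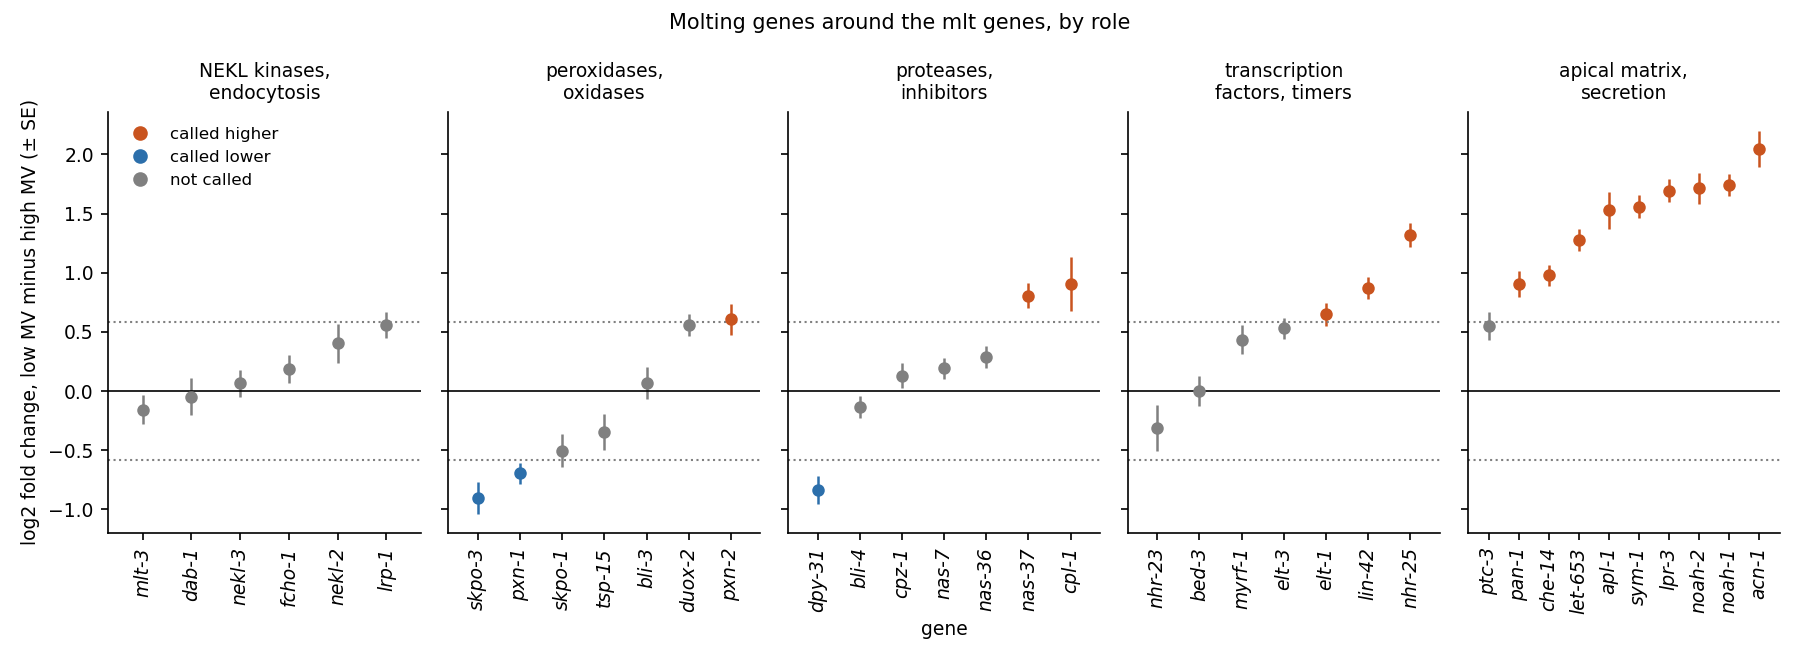
Log2 fold change, low MV minus high MV, of the 37 tested molting partners, grouped by role, with bars of ± SE, called genes in colour and dotted lines at the 0.58 threshold. The points of the apical matrix group lie between 0.55 and 2.05, and those of the kinase and endocytosis group lie between -0.16 and 0.56.

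The relatives of mlt-10, the mltn genes, were mostly dim, and the one tested went the other way. Of 13 listed genes 12 had a probe and 1 had a present probe, mltn-2, which was down-regulated with a log2 fold change of -0.86 (SE 0.12, limma adjusted p = 0.00305). It was also called down-regulated with 75th percentile scaling, spike-in scaling and the deposited table, but not under normexp background correction. With 75th percentile scaling 1 mltn gene, mltn-12, was called up-regulated. The other 11 read between 0.54 and 6.80 on the log2 scale over the 4 arrays, and 5 of them were well above background on all 4. mltn-10 read 6.0 and 5.91 in high MV worms and 4.93 and 4.61 in low MV worms. Without a filter on dim probes its log2 fold change was -1.19 (limma adjusted p = 0.0157). In that fit 5 of the 12 mltn genes were higher in low MV worms, with a median of -0.10, and 0 were called up and 2 down.

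By position, mlt-7, mlt-8 and mlt-10 lie on chromosome II, mlt-4 and mlt-11 on V, mlt-2 on I and mlt-9 on X. mlt-8 and mlt-10 are separated by 4 protein-coding genes in the RefSeq order of the WBcel235 assembly. Of these, 1 was tested, C09E8.1, and it was also up-regulated, by 0.74 on the log2 scale (SE 0.14, limma adjusted p = 0.00725). The share of all genes called up, 21.8%, stands beside this as the background.

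For each called member, the 2 genes whose pattern over the 4 arrays was most like it were found by the root mean square difference of the log2 values after subtracting each gene's mean. They were str-112 and phg-1 for mlt-8 (0.0166 and 0.0276), fbxb-45 and ugt-59 for mlt-10 (0.0137 and 0.0176), and F45D11.14 and clec-17 for mlt-11 (0.0497 and 0.0621). Within 0.1 of the member there were 41 genes for mlt-8, 352 for mlt-10 and 7 for mlt-11. Over 4 arrays this measure mostly follows the fold change, which was 0.83 for fbxb-45 and 0.85 for ugt-59 against 0.84 for mlt-10. The counts therefore mostly reflect how many genes had a similar fold change and are not a separate result.

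Markers of whole-body cell types also moved between the groups. Under quantile normalization the background for their counts is the 21.8% of all genes tested that were called up and the 17.0% called down. With 75th percentile scaling these shares were 25.6% and 19.3%, with spike-in scaling 7.75% and 21.2%, and with normexp 11.2% and 9.78%. Of 7 tested epidermal markers 4 were called up and 0 called down, with a median of 0.79 on the log2 scale, and their summed normalized signal was 10920 to 11170 in high MV worms and 15370 to 15820 in low MV worms. At an unadjusted limma p under 0.05, 1 epidermal marker was lower, mup-4 at -0.40. Over all present probes the change was 0.05 to 1.42 for vab-10, 0.84 to 1.70 for ajm-1 and 0.51 to 0.79 for let-805. For ifb-1 it was -0.80 to -0.29. With the mean of the present probes of a gene 4 epidermal markers were called up, with a median of 0.67. With spike-in scaling and with normexp 2 epidermal markers were called up, and the median was 0.62 and 0.41. Of 8 body wall muscle markers 1 was up-regulated and 5 were down-regulated, with a median of -1.08 and summed signals of 29240 to 36020 and 16320 to 19820. The marker called up, unc-89, was present through the low MV arrays alone. The muscle median was -0.72 without low MV replicate 2 and -0.54 with normexp, 3 were called down with normexp and without high MV replicate 1, and 0 by the methods' t-test after adjustment. Intestinal markers gave 1 up and 1 down of 7, and 4 up without low MV replicate 2. ifb-2 read 11.19 and 9.72 and act-5 12.96 and 12.21 on low MV replicates 1 and 2, apart in the same direction as mlt-2. The intestinal marker ges-1 went slightly the other way, at 8.59 and 8.69. Every body wall muscle marker was also higher on low MV replicate 1 than on low MV replicate 2, with tnt-2 at 8.29 and 6.96. The direction was thus not particular to intestinal markers. The number of intestinal markers called up was 0 with spike-in scaling, and without high MV replicate 2 or low MV replicate 1. Of 13 oocyte and maternal markers 0 were called up and 1 down (6 lower at an unadjusted limma p under 0.05), with 4 down under 75th percentile scaling and 5 under spike-in scaling. Of 3 sperm markers 0 were called (1 lower at an unadjusted limma p under 0.05). The lower one, gsp-3, was present through the high MV arrays alone, which favours lower values in low MV worms. The early embryonic markers gave 3 up and 3 down of 6, with end-1, med-1, med-2 and hlh-27 without a present probe. The part of these cell types in the mlt result was not tested.

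The scaling of the arrays set the size of the smallest call. Scaled to the spike-in probes of each array, the median of all genes moved from 0.01 to -0.35, and mlt-11 and mlt-8 remained up-regulated at 1.69 and 1.46. mlt-10 gave 0.53 and did not pass the test there (limma adjusted p = 0.280), though relative to the median of all genes it was 0.88. Of all genes, 7.75% were then called up and 21.2% down, and calls of higher signal made up 26.8% of all calls in place of 56.2%. Of the 10 apical matrix genes 5 were called up under this scaling, with a median of 0.94, and the transcription factors and timers had 1 call of 8 tested. With normexp background correction mlt-8 and mlt-11 gave 1.02 and 1.88, and mlt-10 fell just under the fold threshold (limma adjusted p = 0.00625).

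**Figure D4:**
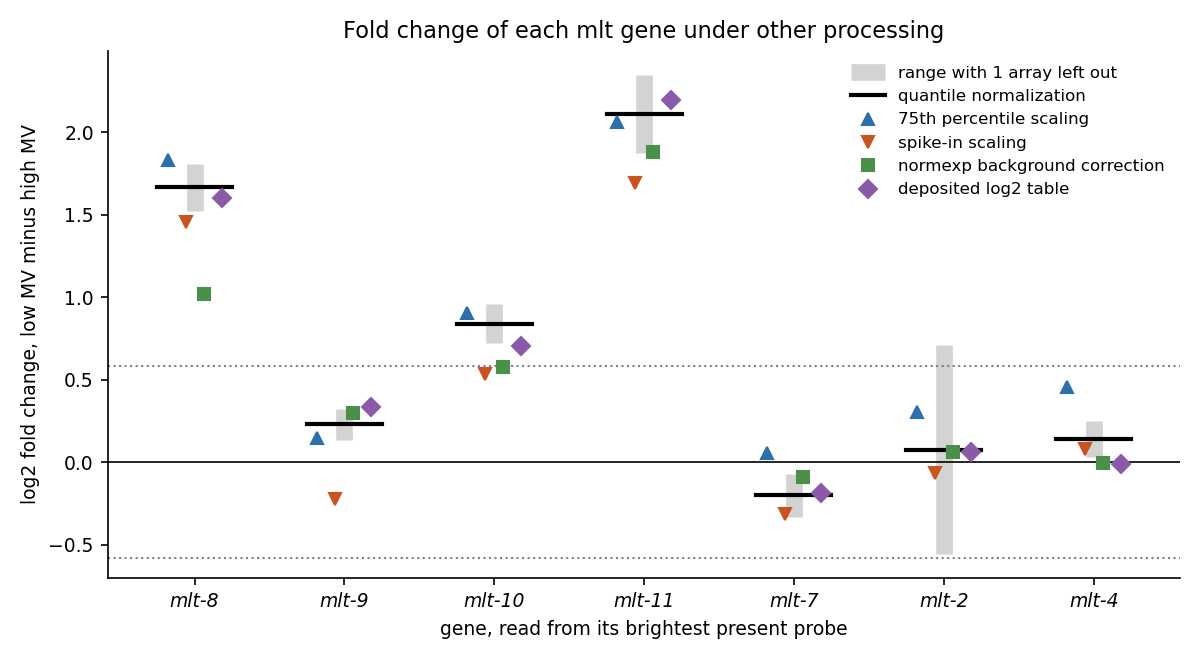
Log2 fold change, low MV minus high MV, of each mlt gene read from its brightest present probe, under quantile normalization (bars), under other scaling or background correction (symbols) and with each array left out (grey range). Over these settings mlt-11 lies between 1.69 and 2.35 and mlt-8 between 1.02 and 1.83, while mlt-2 ranges from -0.56 to 0.71.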

How the data were processed

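Per array, the authors deposited the scanner software's spot intensity after background subtraction, the median spot and local background intensity, and flags (Feature Extraction 11.5.1.1, per the file headers). They also deposited a log2 table of the series. Here the log2 background-subtracted intensity of 43803 non-control spots was quantile normalized, 77 probes with an outlier flag were left out, and spots of 1 probe were averaged. Present probes were found with 2 fitted Gaussian densities per array. Genes were assigned by probe name from RefSeq (WBcel235), and 8027 probes without a gene stayed out of the gene fit. The comparison used limma 3.58.1 (R 4.3.3), at an adjusted p of 0.05 and a log2 fold change of 0.58. The limma step was run on simulated data for this comparison, in which 200 of 12881 genes had a change of 2-fold or more. It recovered 100% of these genes with 0 false calls, a result that describes the simulated data alone. On the real arrays the limma SE differed between genes, with 0.40 for mlt-2 and 0.09 for lin-42. Recovery at the spread of each real gene was not tested, nor was recovery of changes between the 1.5-fold threshold and 2-fold. The share of false calls on the 4 real arrays, where slide and MV group cannot be told apart, was not tested either. Tables and figures were made in Python 3.11.15 with numpy 2.4.6, pandas 2.3.3 and matplotlib 3.10.9.

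The members and gene lists were chosen with earlier results of these data known. Named are all members, every called partner and mltn gene, the uncalled genes nekl-2, nekl-3, mlt-3, lrp-1, bli-3, bli-5 and nhr-23, on which a member's role turns, and the 2 genes most like each called member. Alternatives changed the scaling, the background correction (normexp with an offset of 50 on the median intensities), the source of values, the filter, the variance prior, the test, the threshold, the replicate block, the probe of a gene, and the arrays included. The number of arrays limits the precision.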

Additional observations from a re-analysis of the deposited data

How the results depend on the processing

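mlt-8 and mlt-11 were up-regulated under 15 of the 16 alternatives run, and mlt-10 under 12 of 16. The methods' t-test with Benjamini-Hochberg adjustment called 0 of the 7 mlt genes (3 at an unadjusted p under 0.05), 1 mlt probe, 9 partners and 0 mltn genes, in place of 3, 5, 18 and 1. Scaling to the spike-ins gave 3 probes and 9 partners, normexp 3 probes and 0 mltn genes, and a 2-fold threshold 3 probes, 8 partners and 0 mltn genes. The mltn count was 2 with 75th percentile scaling (1 up, 1 down), with the deposited table and without a filter (2 down in each), and 3, all down, with the filter on spots well above background. mlt-2 turned to -0.069 with the spike-ins and to -0.56 without low MV replicate 1 (0.71 without low MV replicate 2), mlt-4 to -0.0037 with normexp and -0.013 with the deposited table, mlt-7 to 0.057 with 75th percentile scaling, and mlt-9 to -0.23 with the spike-ins. The mean of its probes called mlt-9 up-regulated at 1.11. The second mlt-9 probe fell to 0.41 under normexp and was not called. Of these changes the cause was not tested. With each array left out, 3 to 4 genes, 5 to 6 probes, 17 to 21 partners and 1 mltn gene were called, the lone array of a group being taken to vary like the other group. Over all genes the up and down counts of 2808 and 2191 became 1007 and 2753 with the spike-ins, 1517 and 1322 with normexp, 1284 and 923 at 2-fold, 803 and 764 with the adjusted t-test, 4187 and 2924 without a filter, and 4249 and 2949 with the well-above-background filter. The replicate block gave 3 genes, 5 probes, 18 partners and 1 mltn gene, and changed no call of a member. Arrays of the same replicate number did not deviate together (correlation of deviations -0.04 over 12881 genes). The labels do not say whether replicate numbers pair the samples, and this correlation cannot decide it. Slide and scan as a block could not be fitted, since each slide held 1 group.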
